A study of Mus musculus with 4 samples.

Results

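Histone cluster genes are the multi-copy genes that encode the core histones H2A, H2B, H3 and H4 and the linker histone H1, and they were followed in immune cells sorted from mouse embryos. They were taken as every gene whose symbol starts with Hist1h, Hist2h, Hist3h or Hist4h and whose Ensembl identifier is in the gene lists of both tissues. This gave 65 genes of the 27566 shared by the lists: 6 of H1, 18 of H2A, 16 of H2B, 12 of H3 and 13 of H4. Of these, 52 lie in the Hist1 cluster (chr13:21715763-23934851 on GRCm38), 10 in Hist2 (chr3:96219865-96270132), 2 in Hist3 (chr11:58948920-58956830), and Hist4h4 lies alone at chr6:136801553-136804415. Hist1h2bm and Hist1h2bh carry different identifiers in the lists and Hist1h2al is in the periphery list only, so they are not among the 65. A second gene called Hist2h2bb in the periphery list, with 12 and 8 UMIs there, is named Gm42743 in the fetal liver list and was also left out.

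The study followed how lymphoid tissue inducer (LTi) cells, innate lymphocytes that start the building of lymph nodes, arise before birth. Untreated C57BL/6J embryos gave 4 single-cell libraries, 1 from fetal liver and 1 from the embryonic periphery (the body outside the liver) at each of the embryonic stages E13.5 and E14.5 (days after conception). Magnetic beads first enriched cells with the leukocyte marker CD45, and sorting then kept living CD45+ F4/80- IL7Rα+ cells, so every group was selected for the interleukin 7 receptor and against the macrophage marker F4/80. The number of embryos pooled per library is not given in the sources used here. Fetal liver was made with version 3 of a droplet kit that captures the 3′ ends of polyadenylated RNA and periphery with version 2, so that kit and tissue cannot be told apart, and levels of the tissues are only set side by side.

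After filtering, 10259 cells of E13.5 fetal liver, 10809 of E14.5 fetal liver, 4165 of E13.5 periphery and 4360 of E14.5 periphery remained, with a median of 18448, 15600, 11084 and 8528.5 UMIs (unique molecular identifiers, counting captured RNA molecules) per cell. The sorted markers had the labelled pattern in all 4 libraries: Ptprc, which encodes CD45, was at 62.0 to 143 CPM (UMIs scaled to a library total of 1000000), Il7r at 150 to 395 CPM and Adgre1, which encodes F4/80, at 2.004 to 8.48 CPM. Any pair of libraries shared 0 to 33 cell barcodes. With 1 library per group no test across replicates can be made. Bracketed ranges are therefore exact Poisson 95% intervals, which cover counting error only, and no difference below has a replicate check.

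Most histone cluster genes are replication-dependent: their transcription is switched on as a cell enters S phase, through NPAT and cyclin E with CDK2, and supplies histones for newly made DNA. Their mRNAs usually end just after a short stem-loop, bound by SLBP, in place of a poly(A) tail, and are broken down when replication stops. A minority of the genes also give polyadenylated transcripts, which can be made outside S phase. Capture through poly(A) sees chiefly the latter, so a CPM here is the level of captured 3′ ends and not of all histone mRNA of a gene.

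The stem-loop is shown because transcripts that end just after it usually lack the poly(A) tail that such a kit captures. The stem-loop pattern (GG, any 2 bases, CTT, any base, T, any base, AG, any 2 bases, CC), searched on the transcript strand of GENCODE M21 (GRCm38), was found in 44 of the 65 members and in 0.283% of 55385 other genes. It took 8 forms, of which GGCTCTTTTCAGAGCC was found in 24 members and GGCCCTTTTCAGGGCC in 7, all of H4. Capitals mark the match in the members shown, the 7 of the 10 measured ones that have a match, with up to 5 bases on each side.
Hist1h4i: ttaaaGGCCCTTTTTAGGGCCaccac
Hist1h1c: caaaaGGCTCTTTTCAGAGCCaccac
Hist3h2a: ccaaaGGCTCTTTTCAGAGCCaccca
Hist1h1e: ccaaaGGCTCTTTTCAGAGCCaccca
Hist3h2ba: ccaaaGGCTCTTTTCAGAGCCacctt
Hist1h2ap: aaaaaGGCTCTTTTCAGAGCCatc
Hist1h2ae: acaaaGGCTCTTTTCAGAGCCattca
The annotated transcript of Hist1h2ap stops 3 bases after the stem-loop, whereas that of Hist1h2ae runs on for 151 bases, Hist3h2ba for 169, Hist1h4i for 330, Hist1h1c for 840, Hist1h1e for 1153 and Hist3h2a for 1643. The usual poly(A) signals AATAAA or ATTAAA follow the stem-loop, at any distance, in all of these but Hist1h1e and Hist1h2ap. No match was found for Hist1h1b, Hist1h2bc or Hist1h1a. The annotated transcript of Hist1h1b has no 3′ untranslated region, so this says nothing of its real end.

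Promoters from RefSeq (GRCm38.p6, 250 bases before to 50 after the start) were matched for 60 members. The sequence of the CCAAT box (CCAAT or ATTGG) was in 51 of them, or 85%, against 37.3% of 32790 other promoters. That of the TATA box (TATAAA or TTTATA) was in 58.3% against 13.53%. The octamer (ATTTGCAT or ATGCAAAT), known as the OCT1 site of H2B promoters, was in 12 members, 7 of H2A and 5 of H2B, or 20% against 1.70%. H4 stood apart from the other classes: 3 of its 12 promoters held CCAAT or ATTGG, against all 48 of the others. A match at any place in the window and on either strand was counted, so it need not be a working box of that gene. The promoters below belong to members whose levels are described next, with every match on either strand in capitals and both strands searched.
Hist1h1b, chr13:21780576-21780875, minus strand: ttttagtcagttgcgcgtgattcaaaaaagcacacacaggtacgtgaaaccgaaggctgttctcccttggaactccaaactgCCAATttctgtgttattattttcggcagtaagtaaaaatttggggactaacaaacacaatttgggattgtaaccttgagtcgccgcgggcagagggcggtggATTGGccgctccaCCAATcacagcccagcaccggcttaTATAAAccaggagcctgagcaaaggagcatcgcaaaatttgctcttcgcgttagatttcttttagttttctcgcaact
Hist1h1c, chr13:23738557-23738856, plus strand: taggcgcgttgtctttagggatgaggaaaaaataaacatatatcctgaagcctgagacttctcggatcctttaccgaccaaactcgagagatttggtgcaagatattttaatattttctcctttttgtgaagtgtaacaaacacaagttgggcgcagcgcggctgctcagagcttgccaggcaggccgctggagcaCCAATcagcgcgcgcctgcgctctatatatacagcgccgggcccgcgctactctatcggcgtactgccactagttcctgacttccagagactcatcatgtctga
Hist1h2ae, chr13:23571171-23571470, minus strand: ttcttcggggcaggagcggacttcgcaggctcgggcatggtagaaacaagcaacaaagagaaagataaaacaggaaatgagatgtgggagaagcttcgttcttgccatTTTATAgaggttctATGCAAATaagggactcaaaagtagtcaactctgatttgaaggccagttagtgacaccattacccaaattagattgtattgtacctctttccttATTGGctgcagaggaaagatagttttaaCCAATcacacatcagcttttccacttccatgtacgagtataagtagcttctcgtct
Hist1h4i, chr13:22041313-22041612, minus strand: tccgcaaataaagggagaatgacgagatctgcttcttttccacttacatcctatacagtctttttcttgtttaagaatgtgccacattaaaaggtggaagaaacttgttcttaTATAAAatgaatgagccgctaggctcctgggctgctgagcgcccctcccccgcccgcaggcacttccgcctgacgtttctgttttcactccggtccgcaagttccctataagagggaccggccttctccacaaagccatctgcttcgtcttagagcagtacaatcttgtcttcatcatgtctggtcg
The window of Hist1h2ae overlaps that of Hist1h2bg, read the other way, by 279 bases. There were 10 such pairs, each of an H2A with an H2B gene. A match in the shared part of a pair was counted for both genes, so the counts above are not all of separate sites.

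Few of the 65 genes carried most of the captured histone RNA. Between 61 and 63 members had at least 1 UMI in a library, 26 to 33 reached 1 CPM and 7 to 9 reached 10 CPM. Summed over all members the level was 416 CPM [414 to 419] in E13.5 fetal liver, 518 [515 to 521] in E14.5 fetal liver, 544 [538 to 551] in E13.5 periphery and 570 [563 to 577] in E14.5 periphery. The 4 highest members of each library held 57.7% to 67.3% of it. Hist1h2ba, an H2B gene known from testis, had no UMI in any library, where 3 counts would be 0.0151 to 0.0708 CPM.

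**Figure D1:**
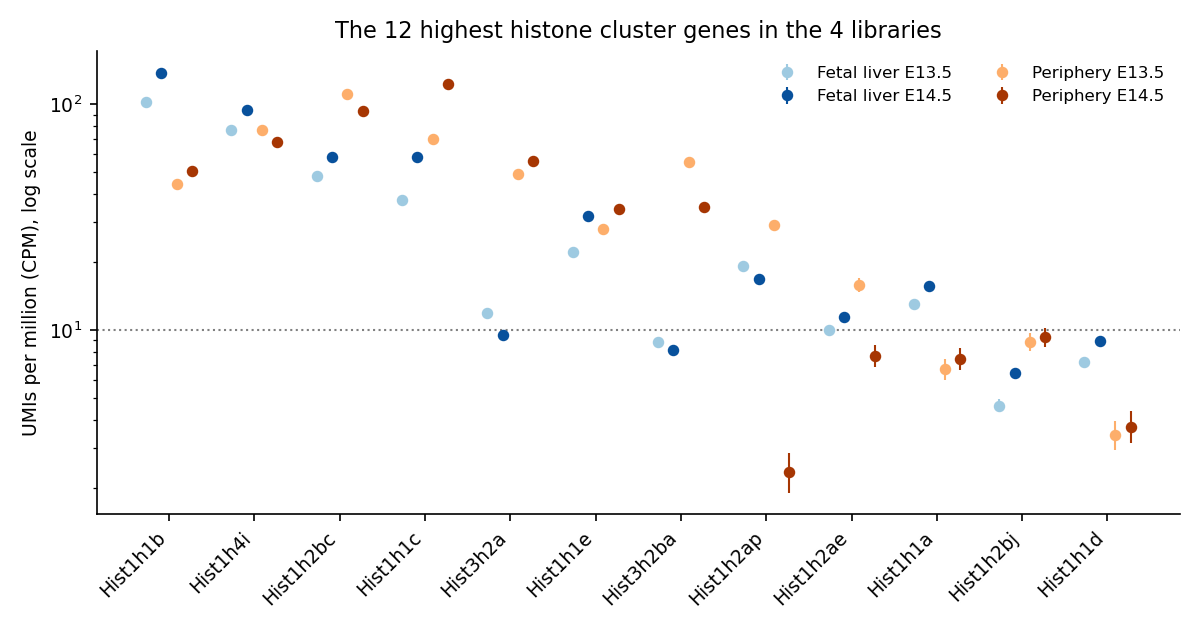
CPM (log axis) of the 12 histone cluster genes with the highest mean, in each of the 4 libraries; points are summed UMIs of kept cells scaled to 1000000 and bars are exact Poisson 95% intervals, mostly smaller than the points. The dotted line is the 10 CPM minimum, and Hist1h2ap in E14.5 periphery, at 2.34 CPM, lies far below its other 3 points.

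The linker histones, which bind the DNA between nucleosomes, held 44.0% and 48.8% of the histone cluster level in E13.5 and E14.5 fetal liver and 28.1% and 38.5% in the periphery. Hist1h1b, the gene of linker histone H1.5, was at 103 CPM in E13.5 and 138 in E14.5 fetal liver and at 44.4 and 50.9 CPM in the periphery. It lies at chr13:21779883-21780625 on the minus strand. Both liver libraries were above both periphery libraries. Hist1h1c, the gene of H1.2 (chr13:23738808-23740367), was at 37.7 and 58.3 CPM in fetal liver and at 70.2 and 123 CPM in the periphery, in the opposite order of tissues. It was higher at E14.5 than at E13.5 in both. Hist1h1e, the gene of H1.4, was at 22.3 and 32.1 CPM in fetal liver and 28.1 and 34.3 CPM in the periphery. Its annotated end overlaps Hist1h2be on the same strand, so its reads are uncertain. Hist1h1a was at 13.0 and 15.7 CPM in fetal liver and 6.69 and 7.44 CPM in the periphery, and Hist1h1d at 7.21, 8.93, 3.42 and 3.73 CPM in the same order. These genes of H1.1 and H1.3 were thus higher in both liver libraries, as Hist1h1b was. Hist1h1t, known from testis, was at most 0.187 CPM.

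The core histones H2A and H2B pair as dimers in the nucleosome. H2A members summed to 56.0 and 56.3 CPM in fetal liver and 106 and 87.6 CPM in the periphery, and H2B members to 75.7 and 86.9 CPM against 186 and 154 CPM. Hist1h2bc (chr13:23684199-23692908, plus strand), the leading H2B gene, was at 48.3 and 58.4 CPM in fetal liver and 111 and 93.9 CPM in the periphery. The neighbours of the Hist3 cluster were also higher in both periphery libraries: Hist3h2a (H2A) was at 11.9 and 9.52 CPM in fetal liver and 49.2 and 55.8 CPM in the periphery. Hist3h2ba (H2B) was at 8.84 and 8.11 CPM in fetal liver and 55.3 and 35.1 CPM in the periphery. The Hist3 pair held 3.40% to 4.99% of the histone cluster level in fetal liver and 16.0% to 19.2% in the periphery. How many of all genes part the tissues in the same way was not counted, and kit and tissue coincide. Hist1h2bj, a lower H2B member, was at 4.62 and 6.43 CPM in fetal liver and 8.88 and 9.28 CPM in the periphery.

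Hist1h2ap (chr13:21833026-21833507, minus strand), an H2A gene, was at 19.3 CPM in E13.5 and 16.8 in E14.5 fetal liver, at 29.3 CPM in E13.5 periphery and at 2.34 CPM in E14.5 periphery. In UMIs this was 3822, 3020, 1476 and 99. A second H2A gene, Hist1h2ae (chr13:23570517-23571220, minus strand), was at 10.0, 11.5, 15.9 and 7.70 CPM in the same order. For both, E13.5 periphery was the highest of the 4 libraries and E14.5 periphery the lowest. All 251 windows of 50 bases in the last 300 annotated bases of Hist1h2ap also occur in other genes' transcripts. The same holds for 55 of 251 windows of Hist1h2ae. Reads of these H2A genes may therefore not be told apart from those of near-identical copies, and the effect on their counts was not tested. For Hist1h1b, Hist1h4i, Hist1h1c, Hist3h2a, Hist3h2ba, Hist1h1a and Hist1h1d no window is shared. Over all members, 33 share more than 50% of their windows and 17 share none.

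H4 and H3 form the tetramer at the centre of the nucleosome. H4 members summed to 84.9 and 103 CPM in fetal liver and 88.2 and 89.1 CPM in the periphery. Nearly all of that was Hist1h4i (chr13:22040636-22041362, minus strand), at 77.3 and 94.2 CPM in fetal liver and 77.3 and 68.2 CPM in the periphery, the narrowest range of the 4 highest members. The other H4 genes stayed below 10 CPM in every library, and Hist1h4d was the highest of them, at up to 9.54 CPM. The H3 class was the lowest, with sums of 16.4, 18.7, 11.3 and 19.9 CPM, and no H3 member reached 10 CPM.

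The annotated 3′ end ran with the level. The 22 members with at least 100 annotated bases after the stem-loop, 15 of which have a poly(A) signal there, had a median of 2.48 CPM (mean of the 4 libraries) and held 55.1% of the summed level. The 22 members with fewer bases after it, 1 of which has a signal there, had a median of 0.782 CPM and held 8.92%. Hist1h2ap at 16.9 CPM was the highest of those and Hist1h2bj, at 7.30 CPM, the next. The poly(A) signal was searched in all bases after the stem-loop, so longer ends had more room to hold one. The 21 members without a stem-loop match had a median of 0.365 CPM, yet Hist1h1b, Hist1h2bc and Hist1h1a among them brought their share to 36.0%. Of these 21, 13 have no annotated 3′ untranslated region, so the lack of a match says nothing of their real ends. Annotated ends rest partly on sequenced polyadenylated transcripts, so end and level are not independent. Most members with fewer than 100 bases after the stem-loop also share more than 50% of their windows with other genes. Few of those with longer ends do, and the part of shared sequence in these levels was not tested. Levels within the divergent pairs ranged from like to far apart: Hist1h2ai averaged 0.407 CPM and its partner Hist1h2bl 0.354 CPM, and Hist1h2bj 7.30 CPM and Hist1h2ag 3.47 CPM. By contrast Hist1h2ap averaged 16.9 CPM and its partner Hist1h2br 0.365 CPM, and Hist1h2ae averaged 11.3 CPM and Hist1h2bg 1.26 CPM.

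**Figure D2:**
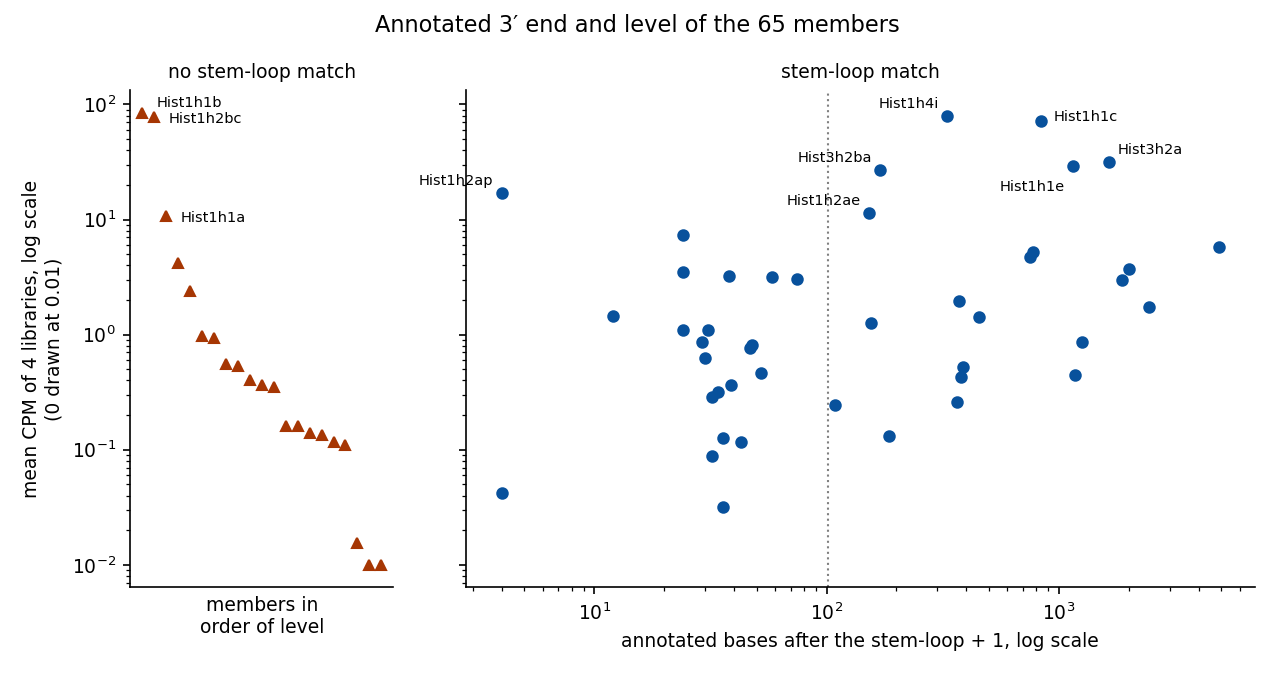
Mean CPM over the 4 libraries (log axis, 0 drawn at 0.01) of each of the 65 members, at left for the 21 without a stem-loop match and at right against the annotated bases after the stem-loop plus 1 (log axis); the dotted line marks 100 bases. To the right of that line lie 7 of the 12 highest members, and Hist1h2ap stands highest to its left.

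Between stages in fetal liver, histone cluster genes were slightly above the typical gene. Folds are log2 of E14.5 over E13.5 after adding 5 CPM, less the median of all measured genes, those reaching 10 CPM in at least 1 library of the tissue (-0.03 in fetal liver and 0.23 in the periphery), and a gene is counted as higher or lower past 0.5. Of 9 measured members in fetal liver, 1 was higher and 0 were lower, against 3.55% higher and 2.87% lower of 7744 genes. Their median was 0.28, and 7 of 9 were above the all-gene median. The gene past 0.5 was Hist1h1c at 0.60, which was at -0.07 without mast cell or basophil-like cells (111 at E13.5 and 706 at E14.5), so that call rests on them. It was followed by Hist1h1e at 0.47 and Hist1h1b at 0.43. Hist1h4i was at 0.30, Hist1h2bc at 0.28, Hist1h1a at 0.23 and Hist1h2ae at 0.16. Hist1h2ap at -0.12 and Hist3h2a at -0.19 lay on the other side. By class, H1 summed to a log2 fold of 0.48 and H2A to 0.04. B lineage-like cells also changed in number, from 138 at E13.5 to 3525 at E14.5, and the part of this in the folds was not tested. They had Hist1h1c at 36.8 and 22.0 CPM and Hist1h1b at 145 and 181 CPM. Within 9 cell classes of fetal liver, Hist1h1c ranged from -0.61 to 0.82, with 2 classes higher and 1 lower. Hist1h1b ranged from -0.11 to 0.54, with 2 classes higher and 0 lower.

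In the periphery the members went different ways. Of 9 measured members, 1 was higher and 3 were lower, against 7.65% higher and 8.33% lower of 7240 genes, and the median was -0.39. Hist1h2ap was at -2.45, and 13 of the 7240 genes, itself included, were that low or lower. Hist1h2ae at -0.94 and Hist3h2ba at -0.81 were the other lower members. Hist1h2ap and Hist1h2ae reached the 10 CPM minimum at E13.5 only, so they entered this count through the library in which they are high. Hist1h1c, at 0.54, was the higher one, and was at 0.58 without mast cell or basophil-like cells. Hist1h2bc at -0.46, Hist1h4i at -0.39, Hist3h2a at -0.06, Hist1h1b at -0.05 and Hist1h1e at 0.02 did not pass 0.5. All members together had a log2 fold of -0.16, and of -0.09 without Hist1h2ap. The H2A sum had a fold of -0.48, and of -0.08 without Hist1h2ap.

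**Figure D3:**
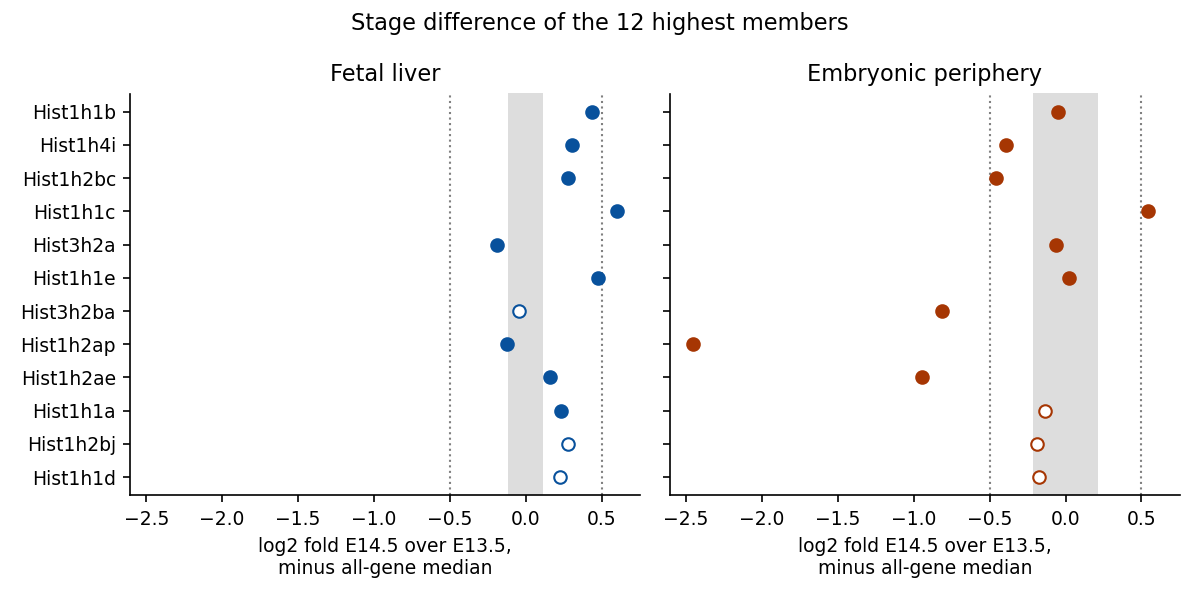
Log2 fold of E14.5 over E13.5 (CPM + 5, less the all-gene median) of the 12 highest members in each tissue, 1 library per stage. Filled points reached 10 CPM in the tissue, the grey band is the middle 50% of all measured genes, and dotted lines are at -0.5 and 0.5; Hist1h2ap in the periphery lies at -2.45.

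Lower members were read with 1 CPM added. Of 25 members between 1 and 10 CPM in the periphery 8 were higher and 0 were lower at E14.5, against 11.0% higher and 16.0% lower of the 4334 genes at that level. They were Hist1h2ag (H2A), from 1.89 to 8.03 CPM, Hist1h2bk (H2B), from 0.477 to 2.67, Hist1h4c (H4), from 1.15 to 3.61, and Hist1h3a (H3), from 2.78 to 6.09, with Hist1h4d, Hist2h2ac, Hist2h4 and Hist1h3i. In UMIs Hist1h2ag went from 95 to 340, but 70.1% of its windows occur in other genes, Hist1h2ap among them, and the part of read assignment was not tested. Hist1h2bk, Hist2h4 and Hist1h3i reached 1 CPM at E14.5 only, so they entered through the library in which they are high. In fetal liver 0 of 18 members at that level were higher or lower, against 10.9% and 7.05% of 3689 genes. The range was chosen after the values were seen, so these counts are a description and support no direction.

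Cells were called as S, as G2 or M (G2/M), or as neither, from lists of cycling genes that hold no cluster histone, after thinning each cell to 4000 UMIs. In fetal liver 40.5% and 43.6% of called cells were S at E13.5 and E14.5, 53.8% and 51.5% G2/M, and 5.66% and 4.91% neither. In the periphery 35.5% and 31.4% were S, 29.0% and 26.0% G2/M, and 35.6% and 42.7% neither. Of the called cells 9.87% to 27.9% lay within 0.05 of a boundary of the score. Before thinning, 41.4%, 44.5%, 33.8% and 28.9% of cells of the 4 libraries were S. Free RNA in the droplets can add UMIs to every phase, and its share was not tested.

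The 10 members measured in either tissue split by phase into 6 that were higher in S cells than in cells of neither phase in all 4 libraries and 4 that were lower in all 4. Hist1h1b had the widest span: it was at 8.05 CPM in neither, 130 in S and 92.1 in G2/M cells of E13.5 fetal liver, and at 9.70, 163 and 127 CPM at E14.5. In the periphery it was at 1.58, 52.7 and 67.4 CPM at E13.5 and at 2.33, 65.2 and 78.7 CPM at E14.5. The ratio of S to neither, with 5 CPM added to each, was 8.77 to 11.4 over the libraries for Hist1h1b, 2.38 to 3.19 for Hist1h1a and 1.54 to 5.35 for Hist1h2ap. For Hist1h4i it was 1.503 to 2.03, for Hist1h1e 1.43 to 2.08 and for Hist1h2ae 1.32 to 2.01. Hist1h4i had a smaller span, and was at 55.3 and 64.8 CPM in cells called neither in fetal liver and 33.6 and 32.4 CPM in those of the periphery.

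The 4 members with the reverse pattern were Hist1h2bc, Hist1h1c, Hist3h2a and Hist3h2ba. Hist1h2bc was at 124 CPM in neither cells and 45.4 in S cells of E13.5 fetal liver, and at 175 and 55.9 CPM at E14.5. In the periphery the values were 152 and 49.6 CPM at E13.5, and 117 and 34.6 CPM at E14.5. Its ratio was 0.325 to 0.390, that of Hist1h1c 0.327 to 0.548, that of Hist3h2a 0.371 to 0.815 and that of Hist3h2ba 0.379 to 0.479. In G2/M cells the tissues parted: Hist1h2bc was at 46.2 and 54.9 CPM in fetal liver, near its S level, and at 141 and 130 CPM in the periphery, near its level in neither cells. The 2 patterns offset in the sum, whose S to neither ratio was 1.27 and 1.06 in fetal liver and 0.929 and 0.805 in the periphery. The value of 0.929 lies above 1 under other phase calls: 1.02 after thinning to 2000 UMIs and 1.02 between the 20% of cells with the highest and the 20% with the lowest share of S phase genes.

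**Figure D4:**
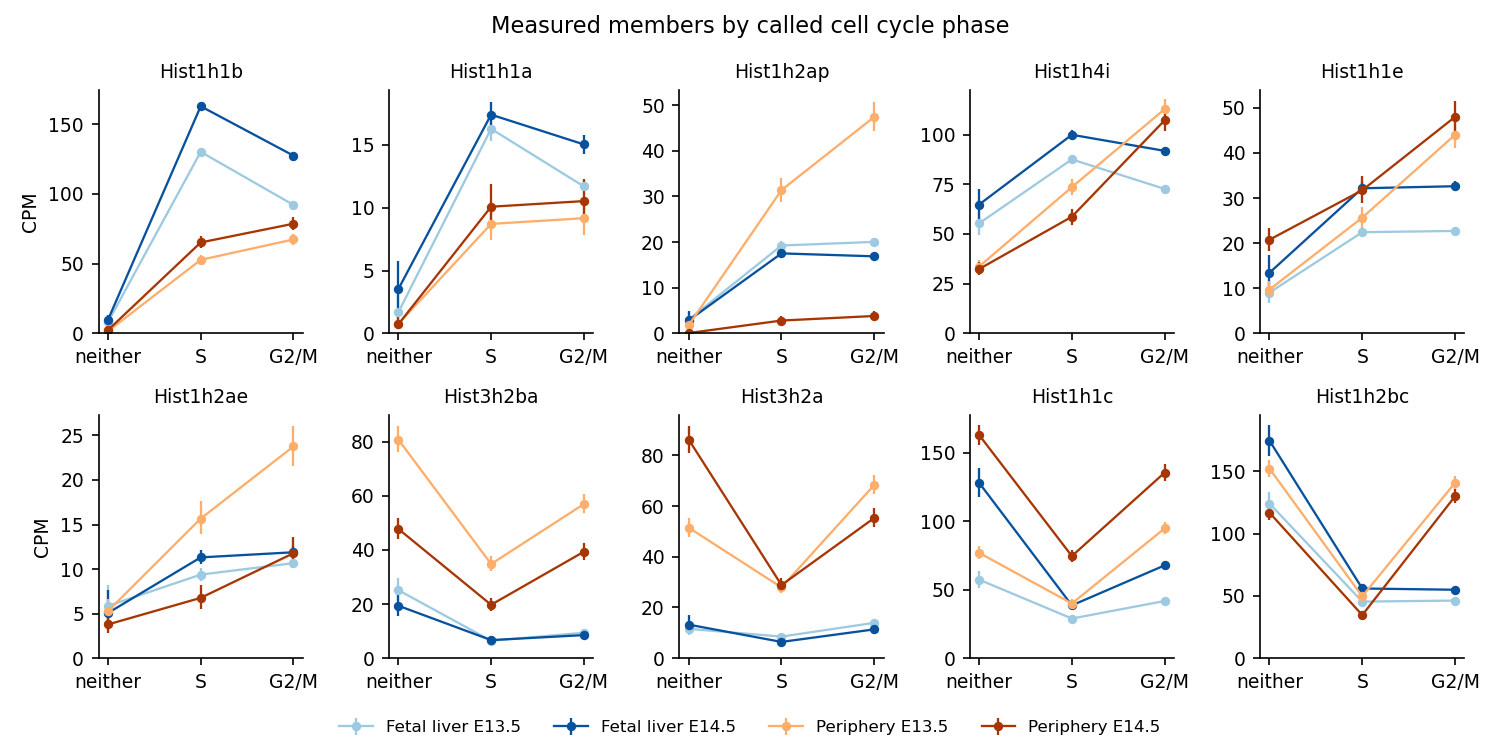
CPM of the 10 members that reached 10 CPM in any library, in cells called neither, S or G2/M in each library; bars are exact Poisson 95% intervals and each panel starts at 0. From Hist1h1b to Hist1h2ae every line is higher in S than in neither, and from Hist3h2ba to Hist1h2bc every line is lower.

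Within cell classes the split by phase was largely the same. Over 9 pairs of class and library with enough cells in both phases, the ratio was above 1 in 9 of 9 for each of Hist1h1b, Hist1h1a, Hist1h2ap, Hist1h4i, Hist1h1e and Hist1h2ae, with 1.01 as the lowest, for Hist1h1e. It was below 1 in 9 of 9 for Hist1h1c and Hist1h2bc, and in 8 of 9 for Hist3h2a and Hist3h2ba. The exceptions, 2.63 and 1.47, were mast cell or basophil-like cells of E14.5 fetal liver, where neither gene had a UMI in cells of neither phase. The promoter boxes did not divide the groups cleanly. CCAAT or ATTGG was in 5 of 6 promoters of the members higher in S and in 3 of 3 matched promoters of those lower. The TATA box sequence, at any place and on either strand, was in 5 of 6 and in 1 of 3. The stem-loop match was in 4 of 6 and in 3 of 4 transcripts.

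The stage differences of the periphery were also present within cells called S and within those called G2/M. Hist1h2ap went from 31.4 to 2.82 CPM in S cells and from 47.4 to 3.82 CPM in G2/M cells, log2 folds of -2.44 and -2.78. Hist1h2ae went from 15.7 to 6.77 CPM in S and from 23.8 to 11.8 CPM in G2/M cells. Hist3h2ba went from 34.8 to 19.7 CPM in S and from 57.0 to 39.4 CPM in G2/M cells. In cells called neither, Hist3h2ba went from 80.8 to 47.8 CPM (-0.95), while Hist1h2ae went from 5.27 to 3.78 CPM (-0.47) and no longer passed 0.5. Hist1h2ap was there at 1.81 and 0.0805 CPM (-0.67), too low to read its size. Hist1h1c had a fold of 0.60 in S cells of 0.28 in G2/M cells and of 0.79 in cells of neither phase of the periphery, and of 0.39 and 0.67 in S and G2/M cells of fetal liver.

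Cells were clustered in each tissue without histone or cycling genes and named only from marker lists. Classes with at least 50 cells in both libraries numbered 9 in fetal liver and 5 in the periphery. In fetal liver, mast cell or basophil-like cells, led by Mcpt8, Prss34 and Cpa3, had the highest summed level, at 1083 CPM [1033 to 1134] in 111 cells at E13.5 and 1574 [1545 to 1602] in 706 cells at E14.5. The next class was at 465 and 521 CPM, and the lowest, neutrophil lineage-like cells, at 337 and 304 CPM. In the periphery the range was narrower, with a ratio of highest to lowest class of 1.57 at E13.5 and 1.34 at E14.5, and mast cell or basophil-like cells were again highest, at 710 and 616 CPM. A cluster of that periphery class also had Bcl11b, a T cell gene, among its leading genes.

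Hist1h1c and Hist1h2bc made up most of that level in fetal liver. Hist1h1c was at 381 CPM in mast cell or basophil-like cells of E13.5 and 664 CPM at E14.5, against 29.6 to 70.4 and 22.0 to 81.7 CPM in the other 8 classes. Hist1h2bc was at 209 and 284 CPM, against 29.96 to 78.0 and 27.9 to 73.2 CPM. Both genes were thus highest in mast cell or basophil-like cells of fetal liver, and the share of all genes highest there was not counted. Without these cells Hist1h1c was at 34.8 CPM at E13.5 and 32.1 CPM at E14.5 in fetal liver, so the count of higher members went from 1 to 0. Hist1h2bc went from 0.28 to 0.07 and Hist1h1b was at 0.44 in place of 0.43. This comparison still holds the change in number of B lineage-like cells, and was added after the levels by class were seen. In the periphery Hist1h1c was also highest in mast cell or basophil-like cells, at 173 and 190 CPM. The other classes were at 41.8 to 82.2 and 30.6 to 153 CPM. Hist1h2bc was highest there at E13.5 only, at 127 CPM.

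**Figure D5:**
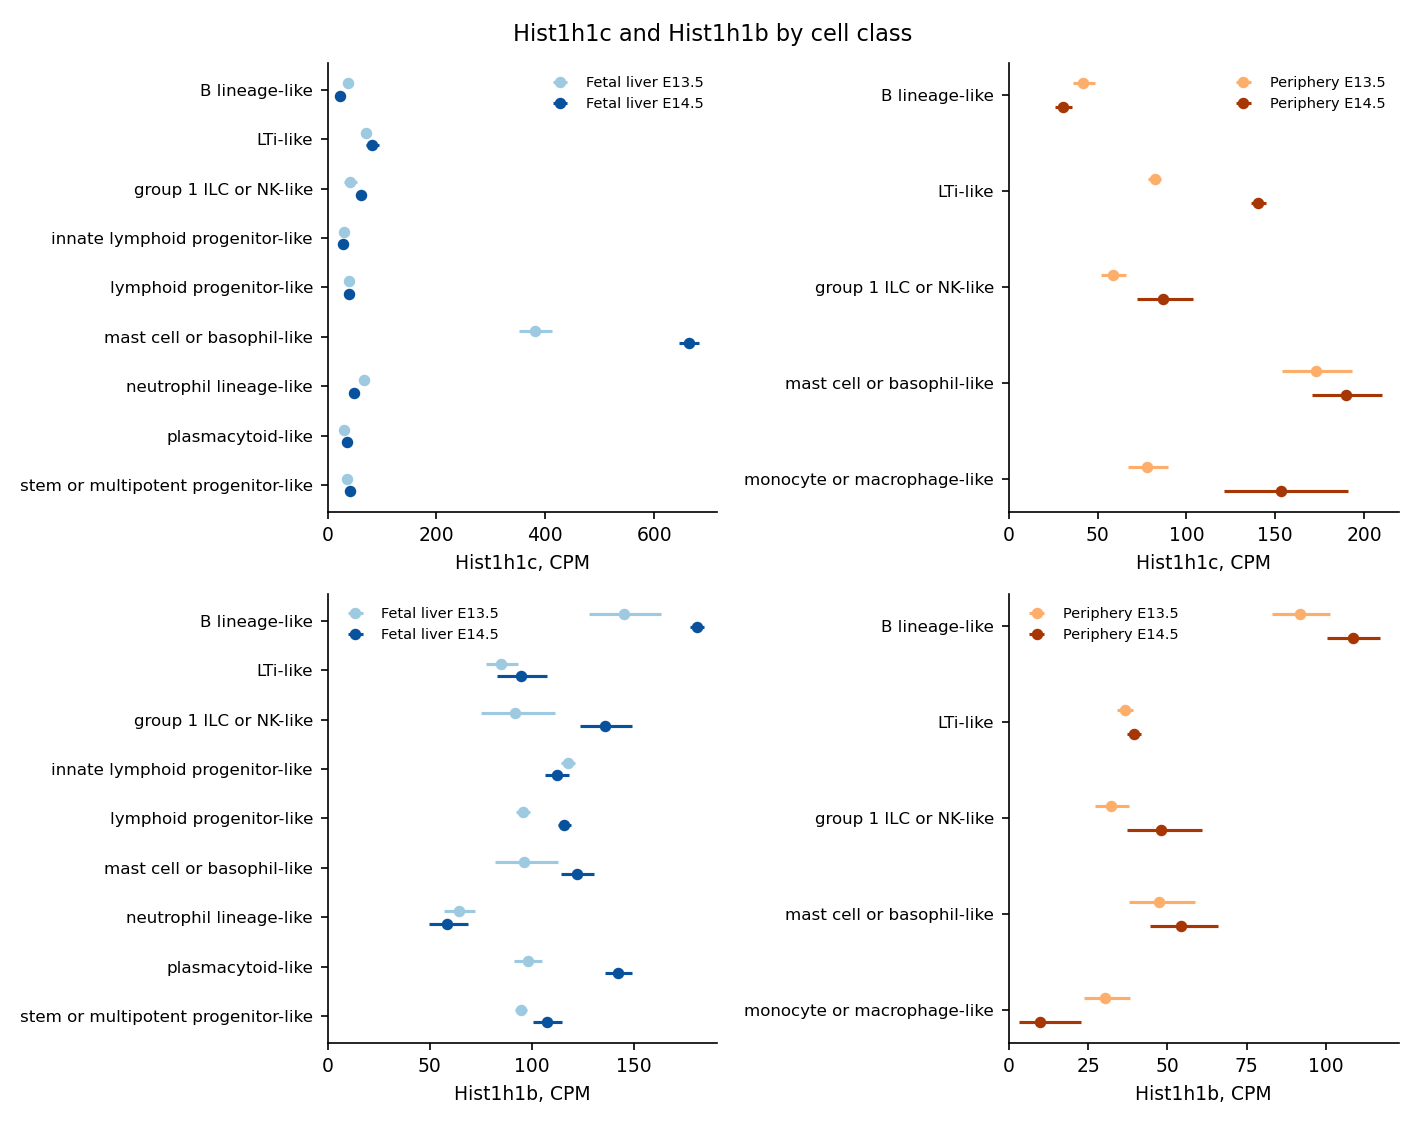
CPM of Hist1h1c (top) and Hist1h1b (bottom) in each cell class with at least 50 cells in both libraries of fetal liver (left) and periphery (right); bars are exact Poisson 95% intervals and axes start at 0. Hist1h1c stands out in mast cell or basophil-like cells of fetal liver, at 381 and 664 CPM, and is also highest in those of the periphery, at 173 and 190 CPM. Hist1h1b is highest in B lineage-like cells of both tissues.

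Hist1h1b was highest in B lineage-like cells in each library, at 145 and 181 CPM in fetal liver and 91.7 and 109 CPM in the periphery. Its lowest classes were neutrophil lineage-like cells in fetal liver, at 64.3 and 58.5 CPM, and monocyte or macrophage-like cells in the periphery, at 30.4 and 9.69 CPM. That periphery class had a median of 11864 UMIs per cell at E13.5 and 1365 at E14.5, so its E14.5 values are the least precise. Of the B lineage-like cells of fetal liver 0% and 0.0870% were called neither phase, so the phase mix differs between classes and its part in these levels was not tested. LTi-like cells were at 85.0 and 94.5 CPM in fetal liver and 36.7 and 39.5 CPM in the periphery.

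Hist3h2ba was highest in 2 classes of innate lymphocytes within fetal liver. It was at 34.2 and 27.0 CPM in LTi-like cells and 43.7 and 16.2 CPM in group 1 innate lymphoid or NK-like cells, against 0.875 to 9.74 and 1.57 to 13.9 CPM in the other 7 classes. Innate lymphoid progenitor-like cells, among those 7, were at 9.30 and 8.89 CPM. The 16.2 CPM rested on 53 UMIs, and plasmacytoid-like cells were at 13.9 CPM at that stage. Of LTi-like cells 38.0% and 40.5% were called neither phase, where this gene is higher than in S, and the part of phase was not tested. Neutrophil lineage-like cells had the lowest level at both stages. In the periphery the same 2 classes were again the highest, at 60.0 and 39.8 CPM in LTi-like and 78.4 and 48.0 CPM in group 1 innate lymphoid or NK-like cells. Its neighbour Hist3h2a had no such pattern in fetal liver, with LTi-like cells at 14.8 and 8.85 CPM and lymphoid progenitor-like cells at 15.3 and 13.6 CPM. In E14.5 periphery the same 2 classes were its highest, LTi-like at 60.8 and group 1 innate lymphoid or NK-like at 51.6 CPM. At E13.5 they were at 42.8 and 48.4 CPM there, and B lineage-like cells were highest at 52.2 CPM.

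In the periphery Hist1h2ap was lower at E14.5 in 5 of 5 classes, with log2 folds of -1.72 to -3.08. Mast cell or basophil-like cells had no UMI of it at E14.5, so their fold rests on the added 5 CPM. LTi-like cells went from 21.6 to 1.92 CPM and B lineage-like cells from 51.2 to 5.34 CPM. The LTi-like class was held mostly by clusters 1, 5 and 8 at E13.5 and by clusters 0, 2, 3 and 9 at E14.5. Hist1h2ae and Hist3h2ba were also lower in 5 of 5 classes, at -0.55 to -1.37 and -0.62 to -1.69. The -1.69 of Hist3h2ba came from monocyte or macrophage-like cells, with 4 UMIs at E14.5, where Hist1h2ae had 1. Hist1h1c went from 82.2 to 140 CPM in LTi-like cells and from 77.8 to 153 CPM in monocyte or macrophage-like cells, but from 41.8 to 30.6 CPM in B lineage-like cells, a fold of -0.55. In fetal liver Hist1h2ap was past -0.5 in 1 of 9 classes.

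Histone genes outside the clusters, whose mRNAs are mostly polyadenylated, were compared in the same way. Of the 11 listed, 0 of 11 measured in fetal liver were higher or lower between stages, with a median of 0.16. In the periphery 1 of 9 was higher and 2 were lower, with a median of -0.25. All lists are read against the shares over all genes, 3.55% higher and 2.87% lower in fetal liver and 7.65% and 8.33% in the periphery. H1f0, the linker histone of resting and differentiated cells, went from 170 to 311 CPM in the periphery (0.63) and from 89.5 to 125 CPM in fetal liver (0.49). H3f3a, a gene of the replacement histone H3.3, went from 1823 to 1325 CPM in the periphery (-0.69), and H2afy, the gene of macroH2A1, from 412 to 294 CPM (-0.71).

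Genes of histone mRNA transcription and end processing had a median of 0.09 in fetal liver, with 1 of 15 higher, and of 0.12 in the periphery, with 1 of 13 higher and 0 lower in either. Slbp, the gene of the stem-loop binding protein, went from 293 to 381 CPM in fetal liver (0.40) and from 272 to 372 CPM in the periphery (0.22). The cyclin E genes were the higher ones, Ccne2 at 0.53 in fetal liver and Ccne1 at 0.63 in the periphery. Of 20 histone chaperone and deposition genes, 1 was higher in fetal liver, Asf1b, from 82.3 to 129 CPM (0.65). In the periphery Asf1a was higher, from 21.5 to 53.3 CPM (0.91), and Npm1 (-0.62) and Nap1l1 (-0.55) were lower.

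The S phase list had a median of 0.19 in fetal liver, with 2 of 42 higher, Rrm2 at 0.62 and Ccne2, and of -0.02 in the periphery, with 0 higher and 2 lower, Gins2 at -0.60 and Dscc1 at -0.52. The G2 and M list had a median of 0.05 in fetal liver, with 0 of 51 past 0.5, and of 0.15 in the periphery, where 4 of 50 were higher, near the 7.65% of all genes. The S phase list shares Slbp, Ccne2 and Casp8ap2 with the transcription and end processing list, and Nasp and Chaf1b with the chaperone list. Set beside it, the measured cluster histones were at 0.28 in fetal liver and -0.39 in the periphery.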

How the data were processed

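Single-cell libraries of sorted embryonic cells were analysed from the UMI counts per gene and cell that the authors deposited. Per the file headers these came from Cell Ranger 3.0.0 (fetal liver) and 3.0.1 (periphery), and the submitters' processing notes name mm10. The gene annotation is not given in the sources used here. Kept cells had 500 or more detected genes and no more than 10% of their UMIs from mitochondrial genes. Scrublet's automatic doublet calls were used in fetal liver (3.59% and 7.63% of cells). In the periphery it marked 0.0929% and 0%, so the top scores up to the rate expected for the load were removed (3.25% and 3.22%). UMIs of kept cells were summed per library, phase or class and scaled to 1000000 (CPM). Deposited totals were 44599592 to 212034840 UMIs per library. Clustering used scanpy 1.11.5 and leidenalg 0.10.2 (2000 variable genes, 30 components, 15 neighbours, resolution 1), and phase calls scanpy's cell cycle score. Normalization by edgeR 4.0.16's TMM factors was an alternative. The fold script was tested on simulated data: 100% of genes changed by 1 or 2 log2 units were called.

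Values in every library are given for the 12 members of highest mean CPM, members past 0.5 log2 between stages, and the 5 measured members at either end by S to neither ratio. Since 10 members were measured, the last is all of them. Other lists are described by counts and medians with up to 4 members per tissue. Members, lists and this rule were chosen with earlier results of these data known. Members between 1 and 10 CPM and levels without mast cell or basophil-like cells were added after seeing the data.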

Additional observations from a re-analysis of the deposited data

Results flagged for a closer look

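Hist1h2ae had a log2 fold between stages of -0.94 in the periphery (15.9 to 7.70 CPM) and of 0.16 in fetal liver (10.0 to 11.5 CPM). It stands out because the stages differ in opposite directions in the tissues, relative to the typical gene of each. In the periphery it reached the 10 CPM minimum at E13.5 only. The difference between tissues was not tested, since each group has 1 library, and kit and tissue cannot be told apart.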

How the results depend on the processing

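No paired analysis was possible because each group has 1 library and the labels carry no replicate numbers, and for the same reason no replicate could be left out. The count of measured members higher at E14.5 in fetal liver, 1, became 2 with 1 CPM added or with equal weight per cell, and 0 when called at 1 log2 unit, in S cells only, without mast cell or basophil-like cells, or among members between 1 and 10 CPM. The periphery's higher count, 1, became 2 when measured at 5 CPM, without ribosomal and mitochondrial genes, in G2/M cells or in cells of neither phase, 3 with no filter, 0 at 1 log2 unit and 8 among members between 1 and 10 CPM. Its lower count, 3, became 1 at 1 log2 unit, 5 in S cells and 0 among members between 1 and 10 CPM. Under these settings the called fold of Hist1h1c in fetal liver turned to -0.07 without mast cell or basophil-like cells. Within classes its periphery fold was -0.55 in B lineage-like cells, and the ratios of Hist3h2a and Hist3h2ba were above 1 in mast cell or basophil-like cells of E14.5 fetal liver. The summed level of E13.5 fetal liver became 426 CPM with equal weight per cell, that of E14.5 fetal liver 560 CPM (527 CPM with all barcodes). Without ribosomal and mitochondrial genes the 4 sums were 549, 676, 801 and 780 CPM, so the order of the periphery stages turned. The summed ratio of S to neither became 1.18 in E14.5 fetal liver with thinning to 2000 UMIs. In E13.5 periphery it became 1.02 with that thinning and 1.02 between the 20% of cells highest and lowest in S phase genes, which reverses it, and in E14.5 periphery 0.891 and 0.904. The ratio of highest to lowest class in E14.5 periphery became 1.43 at resolution 2 and 1.45 at resolution 0.5. Causes were not tested. The ratio of Hist1h1b fell to between 3.70 and 5.0 in fetal liver under thinning to 2000 UMIs or between those 20% groups. Depth limits the 31 to 38 members below 1 CPM in a tissue, whose stage differences were not described.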
